A study of Rattus norvegicus with 9 samples.

Results

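The genes described here form the machinery of DNA replication and S phase, followed through rat ureteric buds grown in 3 media. A list of 42 genes was matched by symbol to the array's probe-to-gene table. Of these, 33 genes had a probe set there (36 probe sets), out of 10411 named genes on the array. Cdc6, Cdt1, Chaf1b, Gins2, Orc1, Pole2, Rfc5, Rrm2 and Uhrf1 had none of their own in that table and were left out. Slbp, encoding the histone mRNA stem-loop binding protein, did not pass the filter on low signals. The other 32 genes were tested, each by its brightest probe set. These probe sets lay above their array's 40th percentile of signal on at least 7 of the 9 arrays, so none entered through a single medium.

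The ureteric bud is an epithelial tube whose branching gives rise to the collecting ducts of the kidney. Buds of Sprague-Dawley rats at embryonic day 13 were cultured for 4 days in equal parts of Matrigel low in growth factors and type 1 collagen, and the RNA of 3 buds was pooled into each sample. All cultures had FGF1 at 250 ng/ml plus GDNF at 125 ng/ml. The BSN group also had BSN-CM, which a line of metanephric mesenchymal cells had conditioned. The HRG group had 500 ng/ml of human recombinant heregulin alpha, which binds receptors of the ErbB family. The PTN group had pleiotrophin, a growth factor that binds heparin, purified from BSN-CM and used at about 3 µg/ml. Each group had 3 arrays, called biological replicates in the series design, and whether buds of 1 litter were shared is not stated. The series title counts PTN among the branching cultures, whereas the descriptions of the PTN samples call them non-branching, so groups are named by medium. No group received FGF1 and GDNF alone, and a rise in one medium therefore cannot be told apart from a fall in the other.

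DNA replication starts at origins, where the origin recognition complex with Cdc6 and Cdt1 loads the ring of Mcm proteins that later unwinds the helix. Cyclin E with its kinase and the GINS complex help turn the loaded ring into an active helicase, and DNA polymerases, primase, the sliding clamp PCNA and its loader copy the strands. Many of these genes are transcribed as cells pass from G1 into S phase, under E2F transcription factors that the retinoblastoma protein holds in check. In the embryonic ureteric bud, cell division is concentrated in the tips.

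Values are GCOS signals on a linear scale, with trimmed means of 2500.48 to 2500.58 on the 9 arrays. Differences are on the log2(signal + 16) scale, with the standard error (SE) of the linear fit, and folds are those differences turned back to ratios. A gene is said to fall or rise where limma's moderated test gave an adjusted p under 0.05 over all 10106 kept probe sets. Of 12 ureteric epithelial markers on the array 11 were kept. Epcam, Krt18 and Krt8 had the highest means in BSN and HRG, and Epcam, Ret and Krt18 in PTN. The 12 markers summed to 167341 to 179606 (BSN), 160665 to 175680 (HRG) and 140327 to 165601 (PTN). These markers did not move as one: 3 fell and 1 rose in HRG against BSN, and 3 fell and 4 rose in HRG against PTN. Ret, the GDNF receptor of the bud tip, was at 13512 ± 1883 (BSN), 918 ± 171 (HRG) and 18756 ± 849.7 (PTN; SD, n = 3), and it fell in HRG against both with Gfra1, its co-receptor, and Lhx1, a duct transcription factor. Krt19, a keratin, rose 3.67-fold in HRG against BSN and 4.84-fold against PTN. Of 12 mesenchymal and stromal markers on the array 4 were kept, namely Col1a1, Col1a2, Col3a1 and Acta2, and none of these passed in any comparison. The 12 summed to 4497 to 5638, 4110 to 4872 and 4138 to 5026 in that order. Wt1, Gdnf, Pdgfra and Pdgfrb were among those not kept. Six2, Cited1, Osr1, Eya1, Meox1 and Foxd1 had no probe set of their own, so they could not be looked at. Of 9 nephron markers only Lrp2 was kept, which rose in HRG against both media, and the 9 summed to 3262 to 4259, 6264 to 7933 and 3770 to 4165. Of 8 endothelial and blood markers Kdr and Csf1r were kept, and the 8 summed to 3105 to 3180, 2499 to 2788 and 2748 to 3227. Kdr was at 742 ± 29.5 (BSN), 329 ± 27.6 (HRG) and 840 ± 229 (PTN; SD, n = 3). Its HRG mean lay below the 40th percentiles of those arrays. Kdr passed the filter through the other media alone, so its fall in HRG against both adds no support. The ratio of 3' to 5' actin control signal, higher where RNA is degraded, had means of 33.2 ± 4.91 (BSN), 25.2 ± 5.87 (HRG) and 16.6 ± 1.4 (PTN; SD, n = 3). Compared by exact permutation (two-sided), HRG and BSN gave p = 0.2, and the other pairs p = 0.1, the smallest possible. The GAPDH control ratio had another order, 4.57 ± 1.11 (BSN), 2.92 ± 0.802 (HRG) and 5.14 ± 1.98 (PTN), with p = 0.1 for HRG and BSN, 0.3 for HRG and PTN and 0.8 for PTN and BSN by the same exact test. The part of these markers and of RNA quality in the results was not tested.

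Promoter windows show a feature many of these genes share that the array does not measure. RefSeq windows on the GRCr8 build, from 250 bases before to 50 bases after the gene's start, were found for 29 of the 33 genes, and not for Ccne2, Gins4, Mcm4 and Rpa3. An E2F motif, searched as TTTCCCGC, TTTCGCGC, TTTGCCGC or TTTGGCGC on either strand, was in 13 of the 29 windows (44.8%), against 2.25% of all 27457 windows and 3.56% of the 8510 windows of genes on the array. These were Gins1, Lig1, Mcm2, Mcm3, Mcm5, Mcm6, Mcm7, Pola1, Pole, Rfc3, Rpa2, Slbp and Tyms. In 9 of them a match lay within 40 bases of the start. In Gins1, Mcm2, Mcm5 and Mcm6 matches on opposite strands overlapped by 4 bases. The CCAAT box was in 17 of the 29 windows (58.6%, against 37.7% of all windows and 37.6% of those of genes on the array), and the CHR motif of mitotic genes, TTTGAA or TTCGAA, in 5 (17.2%, against 19.5% of all windows and 13.3% of those of genes on the array), each on either strand. A match is a stretch of letters and not a measured binding site.

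The windows of 5 genes are given as examples, 5′ to 3′ on the gene's strand, with E2F matches in capitals. Mcm5 (chr19:13488563-13488862, plus strand), Mcm6 (chr13:42404303-42404602, minus strand) and Rfc4 (chr11:91254023-91254322, plus strand) passed in all 3 comparisons. Gins1 (chr3:160184670-160184969, plus strand) was higher in PTN than in both other media, and Tyms (chr9:120776034-120776333, minus strand) was lower in HRG than in both. The Tyms call against BSN was lost under 7 of 19 alternatives. The window of Rfc4 holds no match and is shown for contrast. Chaf1a, Ccne1, Pold1, Prim2 and Dut, which also passed, hold no match either and are not shown. The 5 windows thus do not reflect how often a match occurs among the genes that passed.
Mcm5: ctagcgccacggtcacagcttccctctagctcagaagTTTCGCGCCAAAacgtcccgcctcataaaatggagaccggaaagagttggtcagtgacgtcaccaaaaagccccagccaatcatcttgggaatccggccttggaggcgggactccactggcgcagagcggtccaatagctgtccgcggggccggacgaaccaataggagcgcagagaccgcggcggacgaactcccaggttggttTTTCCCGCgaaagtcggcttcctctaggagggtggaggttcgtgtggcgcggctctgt
Mcm6: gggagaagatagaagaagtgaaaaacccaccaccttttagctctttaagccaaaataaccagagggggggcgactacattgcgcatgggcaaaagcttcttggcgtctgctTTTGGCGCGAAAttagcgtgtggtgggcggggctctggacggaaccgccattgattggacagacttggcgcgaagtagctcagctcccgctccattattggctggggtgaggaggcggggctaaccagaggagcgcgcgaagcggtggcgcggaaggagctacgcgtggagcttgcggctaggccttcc
Gins1: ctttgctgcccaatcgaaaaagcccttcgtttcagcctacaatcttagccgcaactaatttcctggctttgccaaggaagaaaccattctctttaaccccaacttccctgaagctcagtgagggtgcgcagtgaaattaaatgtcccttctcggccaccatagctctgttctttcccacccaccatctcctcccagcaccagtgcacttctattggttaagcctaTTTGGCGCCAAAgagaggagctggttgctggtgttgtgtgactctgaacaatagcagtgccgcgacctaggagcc
Tyms: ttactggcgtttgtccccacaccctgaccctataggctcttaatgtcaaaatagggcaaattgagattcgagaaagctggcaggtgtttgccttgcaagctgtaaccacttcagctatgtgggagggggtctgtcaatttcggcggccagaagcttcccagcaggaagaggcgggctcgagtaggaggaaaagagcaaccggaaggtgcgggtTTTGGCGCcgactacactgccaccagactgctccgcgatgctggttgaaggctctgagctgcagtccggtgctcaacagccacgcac
Rfc4: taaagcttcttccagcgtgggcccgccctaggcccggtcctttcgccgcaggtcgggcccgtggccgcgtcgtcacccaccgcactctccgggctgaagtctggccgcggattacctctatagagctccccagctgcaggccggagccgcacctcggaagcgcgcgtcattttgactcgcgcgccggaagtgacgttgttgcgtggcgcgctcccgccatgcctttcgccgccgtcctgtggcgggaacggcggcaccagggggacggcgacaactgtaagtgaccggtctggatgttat
Genes with a match and genes without one were set side by side. Of 12 tested genes with an E2F match 8 fell in HRG against BSN (median log2 difference -0.63) and 9 fell in HRG against PTN (-0.98). Of 16 without a match 8 fell (-0.64) and 11 fell (-0.76) in these comparisons. In PTN against BSN 5 of the 12 and 2 of the 16 rose. Over all probe sets 8.86% and 11.7% fell in the comparisons with HRG, and 9.15% rose in PTN against BSN. Whether the 2 sets of genes differ was not tested.

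Replication genes had their lowest signals in HRG, and most had their highest in PTN. Comparing HRG with BSN, 17 of the 32 tested genes fell, none rose and 15 did not pass, where 8.86% of all probe sets fell and 6.92% rose. The median log2 difference of the 32 genes was -0.62, against -0.04 over all probe sets. Comparing HRG with PTN, 22 fell, none rose and 10 did not pass, where 11.7% of all probe sets fell and 14.1% rose, and the medians were -0.88 and 0.08. Comparing PTN with BSN, 8 rose, none fell and 24 did not pass, where 9.15% of all probe sets rose and 13.4% fell, and the medians were 0.24 and -0.11. At an unadjusted p under 0.05 in limma the counts of 0 stayed at 0, with 21 lower, 27 lower and 13 higher. Each pair of comparisons shares a group of arrays, so they are not independent. In RNA of whole buds, fewer cells in S phase and less of these transcripts per cell cannot be told apart.

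**Figure D1:**
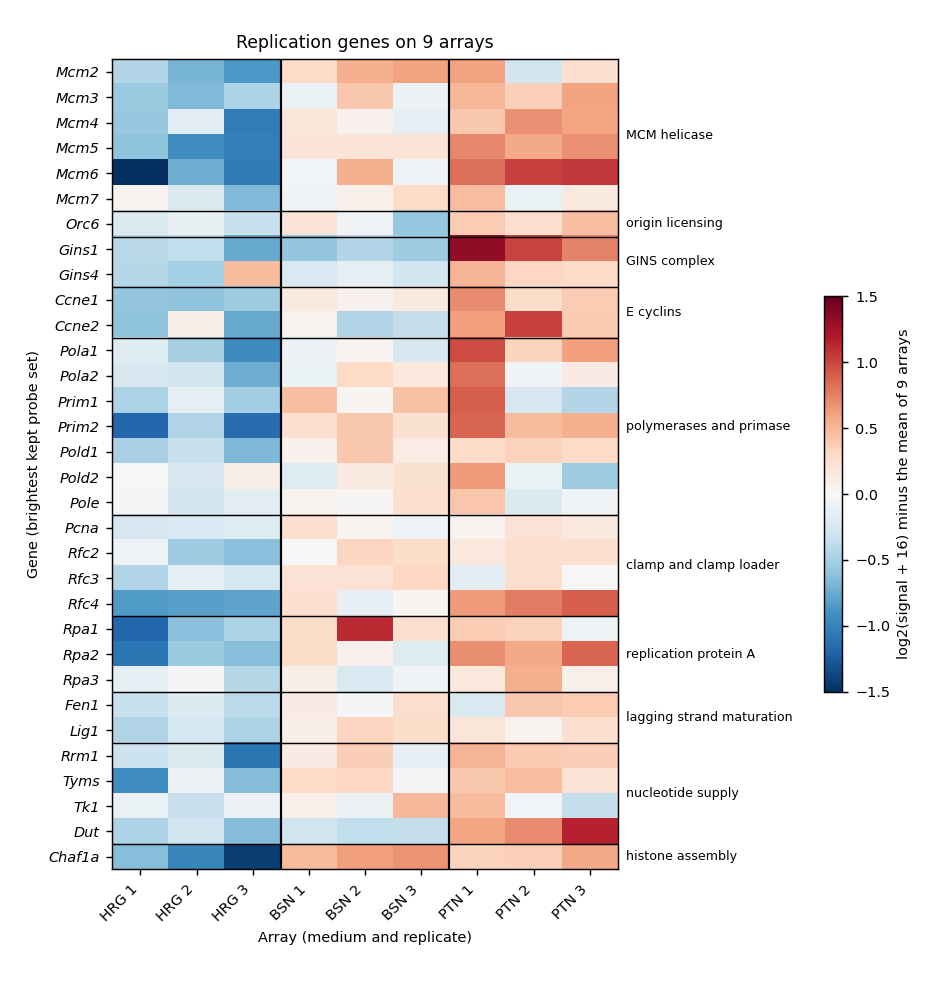
Signals of the 32 tested replication genes (rows, by role) on the 9 arrays (columns, by medium), as log2(signal + 16) minus the gene's mean over the 9 arrays, blue below and red above that mean. The HRG arrays were below the mean for 30 or 31 of the 32 genes, and the PTN arrays above it for 25 to 30.

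The pattern was present on each array. The median deviation of the 32 genes from their means over 9 arrays was -0.45, -0.32 and -0.64 on the HRG arrays (log2). It was 0.11, 0.07 and 0.13 on the BSN arrays and 0.50, 0.34 and 0.33 on the PTN arrays. HRG replicate 3 was the lowest array and PTN replicate 1 the highest. From low to high, the order HRG, BSN, PTN of group means held for 21 of the 32 genes (65.6%, against 15.5% of all probe sets), and the order HRG, PTN, BSN for 9 (28.1%, against 14.4%). Gins1 and Gins4 had the order BSN, HRG, PTN.

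**Figure D2:**
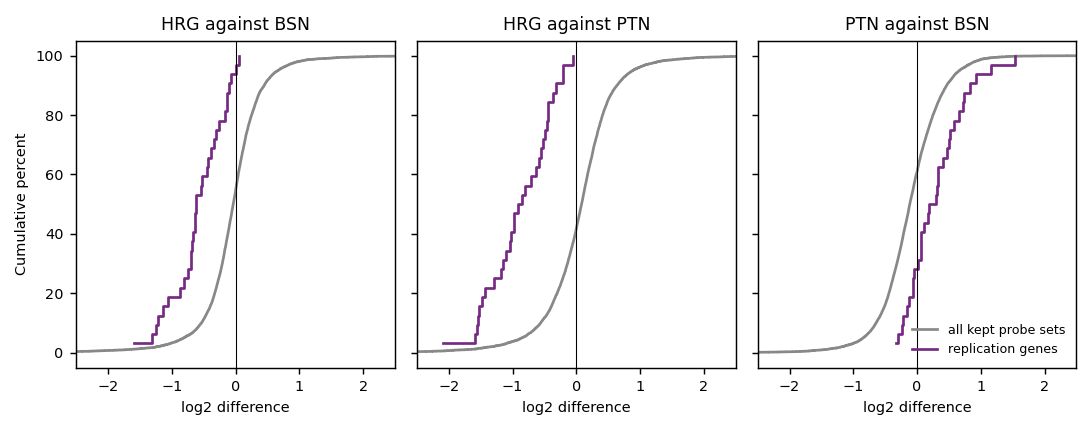
Cumulative percent (y axis) of log2 differences (x axis) in each comparison for the 32 replication genes (purple) and all 10106 kept probe sets (grey, whose tails run past the axis). The purple lines have medians of -0.62, -0.88 and 0.24, against -0.04, 0.08 and -0.11 for the grey lines.

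The level of all probe sets moved with the scaling. After median centring of every array, the medians over all probe sets became 0.06, -0.03 and 0.10, and those of the replication genes -0.52, -0.99 and 0.46. The replication genes then gave 11 lower (HRG against BSN), 26 lower (HRG against PTN) and 14 higher (PTN against BSN), with none the opposite way. Over all probe sets, 699 higher and 895 lower became 855 and 623 for HRG against BSN, 1423 and 1180 became 943 and 1452 for HRG against PTN, and 925 and 1351 became 1598 and 645 for PTN against BSN. Single arrays mattered too: HRG against BSN gave 11 lower without BSN replicate 2, and PTN against BSN gave 3 higher without BSN replicate 3 and 5 without PTN replicate 3.

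The Mcm genes encode the helicase ring, and 5 of the 6 fell in each comparison with HRG. Mcm6 had signals of 2275, 3973 and 3178 in HRG, 6467, 9611 and 6268 in BSN, and 11798, 13562 and 13846 in PTN. The 3 groups did not overlap. Mcm6 fell 2.38-fold against BSN (log2 difference -1.25 ± 0.208 SE, adjusted p = 0.00123) and 4.24-fold against PTN (-2.08 ± 0.208, adjusted p = 1.54e-05), the largest fall of the 32 genes there. It rose 1.78-fold in PTN against BSN (0.83 ± 0.208, adjusted p = 0.0129). Mcm5 had signals of 2903, 2312 and 2164 in HRG, 5067, 5064 and 5130.1 in BSN, and 7341, 6609 and 7155 in PTN. Its BSN arrays lay close together, and again no groups overlapped. Mcm5 fell 2.08-fold against BSN (-1.06 ± 0.137, adjusted p = 0.000207) and 2.87-fold against PTN (-1.52 ± 0.137, adjusted p = 6.8e-06), and rose 1.38-fold in PTN against BSN (0.47 ± 0.137, adjusted p = 0.0286). In that last comparison the Mcm5 call was lost without any one BSN array (adjusted p = 0.0739, 0.07 and 0.077) or PTN replicate 3 (0.0759), and the Mcm6 call without BSN replicate 1 (0.0544) or BSN replicate 3 (0.0616).

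Mcm2, Mcm3 and Mcm4 fell in both comparisons with HRG and did not pass in PTN against BSN. Mcm2 was at 5809 ± 654 (BSN), 2634 ± 399.5 (HRG) and 4876 ± 1464 (PTN; SD, n = 3), a fall of 2.21-fold against BSN and 1.8-fold against PTN. Mcm3 was at 2498 ± 532, 1584 ± 108 and 3296 ± 278 in that order, falling 1.55-fold and 2.07-fold. Mcm4 was at 5646 ± 622, 3731 ± 1116 and 8105 ± 786, falling 1.55-fold and 2.23-fold. In each, every HRG array was below every other array. Mcm7, at 7396 ± 932, 5774 ± 1409 and 7802 ± 1532, passed nowhere and its groups overlapped in every comparison, while after median centring its adjusted p in HRG against PTN was 0.0451 (0.114 as deposited).

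The calls of Mcm3 and Mcm4 in HRG against BSN were the less stable ones. That of Mcm3 (adjusted p = 0.0157) did not hold without replicate 2 of BSN (0.0689) or of HRG (0.0676) and after median centring (0.0588). That of Mcm4 (adjusted p = 0.0437) was lost without any one BSN array (0.14, 0.119 and 0.0603), HRG replicate 1 (0.0896), HRG replicate 3 (0.189) or PTN replicate 3 (0.0555), and after median centring (0.135), with no filter (0.0705) or with no intensity trend (0.0644). In PTN against BSN Mcm3 passed without BSN replicate 2 (0.0219), and after quantile normalization (0.0335) or median centring (0.0218). Mcm4 passed there without HRG replicate 2 (0.0432), HRG replicate 3 (0.0363) or PTN replicate 1 (0.0431). It also passed with the replicate number as a block (0.0471), after median centring (0.0318) and with only the groups compared (0.0349).

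Of the genes for loading and activating the helicase, Orc6, Gins1 and Gins4 did not pass in HRG against BSN, and their group means were highest in PTN. Gins3, a GINS subunit from the list of further replication genes, did fall, against BSN (-0.67, adjusted p = 0.031) and against PTN (-0.89, adjusted p = 0.00427). Gins1, a GINS subunit, had signals of 1261, 1296 and 993 in HRG, 1125, 1236 and 1163 in BSN, and 4272, 3412 and 2825 in PTN. The HRG and BSN arrays overlapped, and every PTN array was well above them. Gins1 rose 2.92-fold in PTN against BSN (1.54 ± 0.171, adjusted p = 0.000103), the largest difference of the 32 genes there, and was 2.91-fold lower in HRG than in PTN (adjusted p = 3.55e-05). Its difference in HRG against BSN was 0.00 ± 0.171 (adjusted p = 0.997). Gins4, another subunit, had signals of 2909.6, 2743 and 5463 in HRG, 3345, 3578 and 3213 in BSN, and 5565, 4843 and 4798 in PTN. HRG replicate 3 was as high as the PTN arrays. Gins4 passed nowhere (adjusted p = 0.898, 0.0969 and 0.0712), but without HRG replicate 3 it was lower in HRG than in PTN (0.0024) and higher in PTN than in BSN (0.0112). In PTN against BSN it also passed after median centring (0.0267) and with only the groups compared (0.0184).

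Orc6, a subunit of the origin recognition complex, had 3 probe sets. The brightest had signals of 2626, 2826 and 2424 in HRG, 3503, 2953 and 2049 in BSN, and 3986, 3637 and 4179 in PTN. HRG and BSN overlapped, and the PTN arrays were above both. It was 1.5-fold lower in HRG than in PTN (adjusted p = 0.0299), with 0.50 ± 0.178 in PTN against BSN (adjusted p = 0.0603). A second, dim probe set, kept through its 3 PTN arrays, had signals of 390.5, 260.1 and 249 in HRG, 306, 401 and 322 in BSN, and 980.2, 635 and 629 in PTN. Because it passed the filter through PTN alone, its tests are not used. The third was not kept, at 134 ± 48.8 (BSN), 131 ± 41.8 (HRG) and 468 ± 186 (PTN; SD, n = 3). For the brightest, the call in HRG against PTN was lost without any one HRG array (0.076, 0.0506 and 0.102) or PTN replicate 3 (0.0876). PTN against BSN passed without BSN replicate 1 (0.0268), and after quantile normalization (0.044) or median centring (0.0224). It also passed with a filter at the 60th percentile (0.0492), and with probe sets averaged, the dim one included (0.00802).

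The E cyclins activate the kinase that helps fire origins, and both fell in HRG against PTN. Ccne1, encoding cyclin E1, had signals of 1133, 1122 and 1177 in HRG, 1892, 1792 and 1897 in BSN, and 2791, 2063 and 2224 in PTN. The 3 groups did not overlap. Ccne1 fell 1.62-fold against BSN (adjusted p = 0.00508) and 2.03-fold against PTN (adjusted p = 0.000214). Its difference in PTN against BSN was 0.33 ± 0.143 (adjusted p = 0.118), which passed after quantile normalization (0.0231) and median centring (0.00973). Ccne2, encoding cyclin E2, had signals of 1023, 1666 and 924 in HRG, 1631, 1138 and 1218 in BSN, and 2414, 3198 and 2066 in PTN. HRG and BSN overlapped, and all PTN arrays were higher. Ccne2 rose 1.91-fold in PTN against BSN (0.93 ± 0.234, adjusted p = 0.0134) and was 2.15-fold lower in HRG than in PTN (adjusted p = 0.00413), with -0.17 ± 0.234 in HRG against BSN (adjusted p = 0.694). The rise was lost without BSN replicate 2 (0.0541), BSN replicate 3 (0.0527) or PTN replicate 2 (0.0549).

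**Figure D3:**
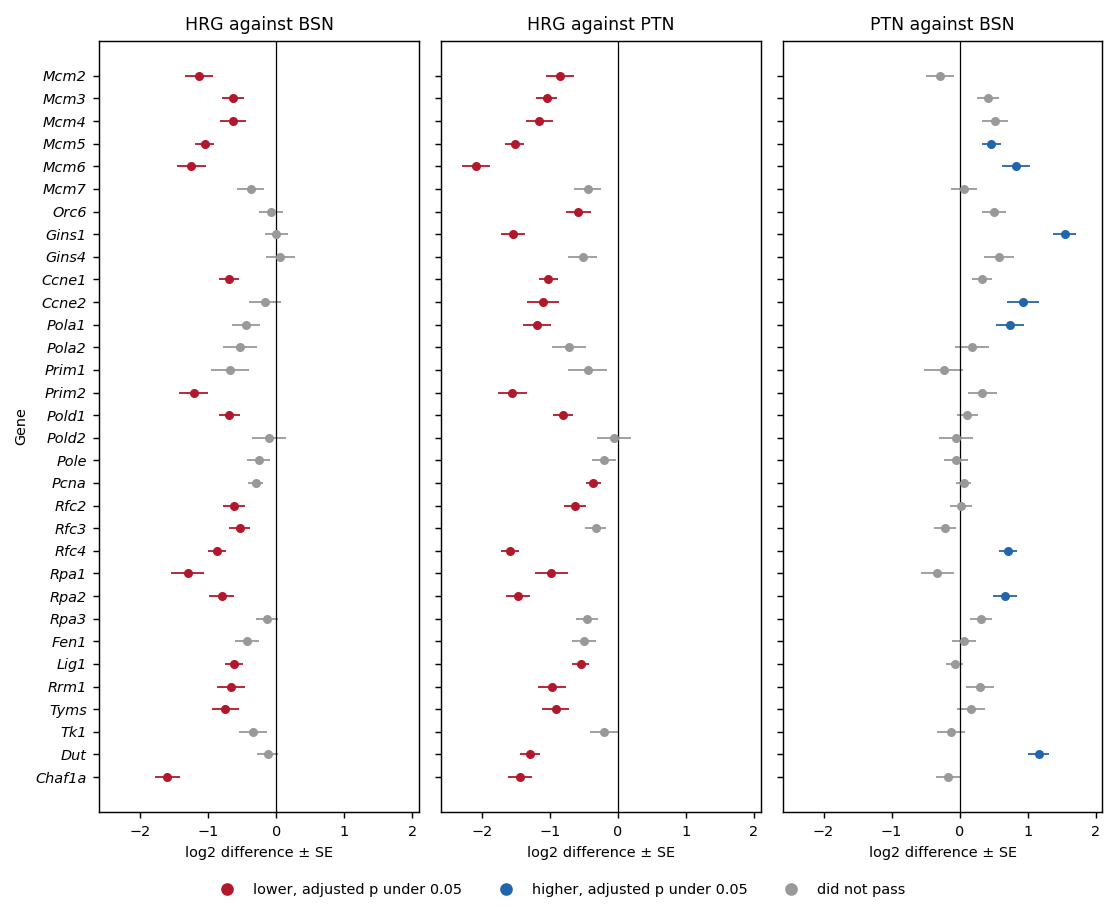
Log2 differences of the 32 tested genes in the 3 comparisons (points, with bars of 1 SE from the linear fit), red where lower and blue where higher at an adjusted p under 0.05, grey otherwise. There are 17 and 22 red points in the comparisons with HRG and 8 blue points in PTN against BSN, and none the opposite way.

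Of 7 polymerase and primase genes tested, Prim2 and Pold1 fell in both comparisons with HRG and Pola1 fell in HRG against PTN. Prim2, the large subunit of primase, had signals of 455, 767 and 470.4 in HRG, 1259, 1399.5 and 1233 in BSN, and 1948, 1469 and 1536 in PTN. The 3 groups did not overlap, and HRG was lowest. The HRG mean of 564 lay below the 40th percentiles of those arrays, so no fold is given (adjusted p = 0.00156 against BSN and 0.000168 against PTN). Pola1, the catalytic subunit of polymerase alpha, had signals of 4757, 3849.5 and 2818 in HRG, 5121, 5600.1 and 4595 in BSN, and 10761, 6843 and 8358 in PTN. HRG and BSN overlapped, and PTN was above both. Pola1 rose 1.67-fold in PTN against BSN (0.74 ± 0.203, adjusted p = 0.0203) and was 2.28-fold lower in HRG than in PTN (adjusted p = 0.000965). The rise was lost without BSN replicate 1 (0.0552), BSN replicate 3 (0.0825) or PTN replicate 3 (0.0505).

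Pold1, the catalytic subunit of polymerase delta, was at 1618 ± 213 (BSN), 994 ± 119 (HRG) and 1742 ± 41.1 (PTN; SD, n = 3). It fell 1.62-fold against BSN (adjusted p = 0.00746) and 1.75-fold against PTN (adjusted p = 0.00193). Pold2, an accessory subunit of polymerase delta, passed nowhere, with log2 differences of -0.11 ± 0.251 (SE) in HRG against BSN, -0.05 in HRG against PTN and -0.06 in PTN against BSN. Pole, the catalytic subunit of polymerase epsilon, passed nowhere, at 1663 ± 150.0 (BSN), 1385 ± 124 (HRG) and 1626 ± 387 (PTN). Pola2, an accessory subunit of polymerase alpha, was at 901 ± 126, 621 ± 113 and 1057 ± 367 in that order. Its adjusted p in HRG against PTN was 0.0506, and it passed without PTN replicate 2 (0.0314) and after quantile normalization (0.0178) or median centring (0.018). It also passed there with no intensity trend (0.0444) and with probe sets averaged per gene (0.049).

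Prim1, the catalytic subunit of primase, depended on 1 array. Its signals were 2542, 3233 and 2468 in HRG, 4844, 3622 and 4807 in BSN, and 6649, 2966 and 2617 in PTN. PTN replicate 1 was the highest of the 9 arrays, while the other PTN arrays lay within the HRG range. Prim1 passed nowhere (adjusted p = 0.131, 0.271 and 0.577), but without PTN replicate 1 it was lower in HRG than in BSN (0.00611) and lower in PTN than in BSN (0.0124). With only the groups compared it was also lower in HRG than in BSN (0.00871). PTN replicate 1 was the highest PTN array for 6 of the 7 polymerase and primase genes and for 15 of all 32 genes. This count, and the choice of Prim1 for values on every array, were made after the values were seen.

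**Figure D4:**
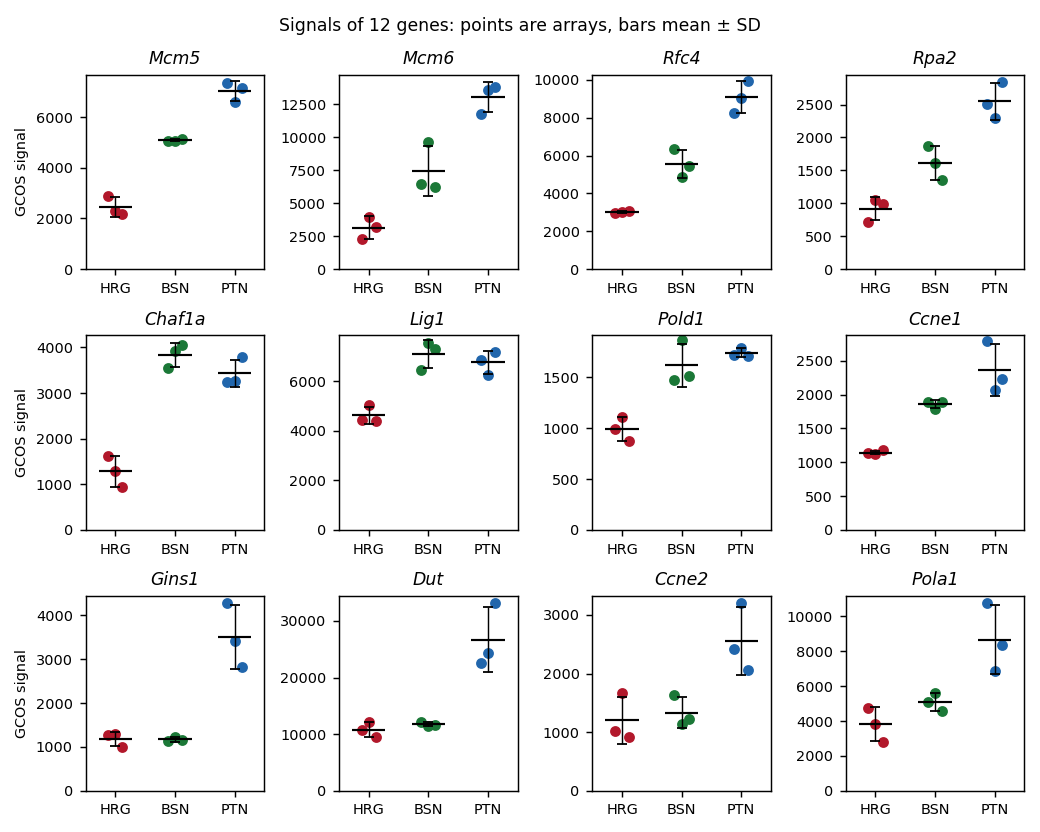
GCOS signals (linear axis from 0) of 12 genes on the HRG, BSN and PTN arrays; points are arrays, and lines are means with bars of 1 SD. The top row holds the genes that passed in all 3 comparisons, the middle row 4 that were lower in HRG than in both other media and did not pass in PTN against BSN, and the bottom row the 4 that were higher in PTN than in both others and did not pass in HRG against BSN.

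Replication factor C loads the clamp onto DNA, and Rfc2, Rfc3 and Rfc4 fell in HRG against BSN. Rfc1, its large subunit, taken from the list of further replication genes, did not pass (-0.48, adjusted p = 0.0735 against BSN, and -0.03, adjusted p = 0.924 against PTN). Rfc4 had signals of 2950.1, 3013 and 3071 in HRG, 6337, 4872 and 5439 in BSN, and 8263, 9061 and 9937 in PTN. The HRG arrays lay in a narrow range, and the groups did not overlap. Rfc4 fell 1.83-fold against BSN (-0.87 ± 0.136, adjusted p = 0.000789) and 3-fold against PTN (-1.58 ± 0.136, adjusted p = 4.69e-06), the lowest p of the 32 genes there, and rose 1.64-fold in PTN against BSN (0.71 ± 0.136, adjusted p = 0.00306). Rfc2 had signals of 4204, 3031 and 2882 in HRG, 4442, 5570.4 and 5386 in BSN, and 4968, 5234 and 5317 in PTN. BSN and PTN overlapped, and the highest HRG array was below them. Rfc2 fell 1.53-fold against BSN (adjusted p = 0.0188) and 1.55-fold against PTN (adjusted p = 0.0109). The Rfc2 call against BSN was lost without HRG replicate 2 (0.0842) or 3 (0.0963), without BSN replicate 2 (0.0795) or 3 (0.0732), and after median centring (0.054), and that against PTN without HRG replicate 3 (0.0568).

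Rfc3 and Pcna passed in 1 comparison each. Rfc3 was at 1631 ± 58.2 (BSN), 1120.0 ± 118 (HRG) and 1413 ± 209.6 (PTN; SD, n = 3), and it fell 1.46-fold in HRG against BSN (adjusted p = 0.0315). That call was lost without any one BSN array (0.0757, 0.0741 and 0.102), HRG replicate 1 (0.104) or HRG replicate 3 (0.0833), after quantile normalization (0.0814) or median centring (0.109) and with no filter (0.0587). Pcna, the clamp itself, was at 33146 ± 3703, 26785 ± 538 and 34424 ± 1955 in that order, and it fell 1.28-fold in HRG against PTN (adjusted p = 0.0315), the smallest of the falls that passed. That call was lost without any one HRG array (0.0853, 0.0798 and 0.0697), PTN replicate 2 (0.097) or PTN replicate 3 (0.0746), after quantile normalization (0.0533), with no filter (0.0767) and with no intensity trend (0.0671). Against BSN Pcna passed after quantile normalization (0.0204) and without PTN replicate 1 (0.0485), where its adjusted p was otherwise 0.0923.

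Replication protein A coats single-stranded DNA as a complex of 3 subunits, of which the genes of the large and the middle one fell in HRG. Rpa1, the large subunit, had signals of 1008, 1483 and 1648 in HRG, 2781, 5002 and 2736 in BSN, and 2993, 2927 and 2191 in PTN. BSN replicate 2 was far above the other BSN arrays, and the HRG arrays were below all others. Rpa1 fell 2.47-fold against BSN (-1.31 ± 0.245, adjusted p = 0.00274) and 1.97-fold against PTN (adjusted p = 0.0106, or 0.0549 without HRG replicate 1). Rpa2, the middle subunit, had signals of 718, 1048 and 987 in HRG, 1866, 1610.1 and 1352 in BSN, and 2514, 2289 and 2849 in PTN. No groups overlapped. Rpa2 fell 1.75-fold against BSN (adjusted p = 0.00836) and 2.77-fold against PTN (adjusted p = 7.54e-05), and rose 1.59-fold in PTN against BSN (adjusted p = 0.019), a call lost without BSN replicate 3 (0.0868) or PTN replicate 3 (0.0736). Rpa3, the small subunit, passed nowhere, at 3955 ± 457 (BSN), 3609 ± 493 (HRG) and 4969 ± 888 (PTN; SD, n = 3). Its adjusted p in HRG against PTN was 0.0582, or 0.0428 without PTN replicate 1. There it also passed after median centring (0.0328) and with a filter at the 60th percentile (0.0465). In PTN against BSN Rpa3 passed after median centring (0.0449).

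Of the enzymes that finish the lagging strand, DNA ligase fell and the flap endonuclease did not pass. Lig1, encoding DNA ligase 1, had signals of 4435, 5037 and 4389 in HRG, 6467, 7566 and 7296 in BSN, and 6844, 6257 and 7196 in PTN. BSN and PTN overlapped, and all HRG arrays were below them. Lig1 fell 1.54-fold against BSN (adjusted p = 0.00516) and 1.46-fold against PTN (adjusted p = 0.00713). Fen1, the flap endonuclease, had signals of 2515, 2752 and 2404 in HRG, 3444, 3124 and 3812 in BSN, and 2711, 4193 and 4143 in PTN. PTN replicate 1 lay within the HRG range. In HRG against PTN Fen1 had an adjusted p of 0.0501, or 0.0485 with the replicate number as a block. Fen1 also passed there after median centring (0.0455), with pseudocount 64 (0.0498), a filter at the 60th percentile (0.0402) or probe sets averaged per gene (0.0474). Without PTN replicate 1 it was lower in HRG than in PTN (0.00188) and than in BSN (0.0208). With only the groups compared it was lower in HRG than in BSN (0.0325).

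Of 4 tested genes of nucleotide supply, Tyms and Rrm1 fell in both comparisons with HRG, Dut was higher in PTN than in both other media, and Tk1 passed nowhere. Dut, the enzyme that breaks down dUTP and so keeps uracil out of DNA, had signals of 10795, 12088 and 9519 in HRG, 12121, 11511 and 11632 in BSN, and 22576, 24389 and 33175 in PTN. HRG and BSN overlapped, and every PTN array was well above them. Dut rose 2.24-fold in PTN against BSN (1.16 ± 0.152, adjusted p = 0.000309) and was 2.45-fold lower in HRG than in PTN (adjusted p = 5.67e-05), with -0.13 ± 0.152 in HRG against BSN (adjusted p = 0.645). Tyms, encoding thymidylate synthase, had signals of 731, 1321 and 894 in HRG, 1726, 1743 and 1393 in BSN, and 1873, 1947 and 1632 in PTN. BSN and PTN overlapped, and HRG replicate 2 was the HRG array closest to them. Tyms fell 1.68-fold against BSN (adjusted p = 0.023) and 1.89-fold against PTN (adjusted p = 0.00514). The Tyms call against BSN was lost without HRG replicate 1 (0.0901) or 3 (0.084), without BSN replicate 1 (0.0812) or 2 (0.0862), after quantile normalization (0.0524) or median centring (0.0672) and with no filter (0.0511).

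Rrm1, the large subunit of ribonucleotide reductase, was at 6700.2 ± 1144 (BSN), 4322 ± 1297 (HRG) and 8202 ± 413 (PTN; SD, n = 3). It fell 1.59-fold against BSN (adjusted p = 0.0478) and 1.96-fold against PTN (adjusted p = 0.00453). The call against BSN was lost without any one BSN array (0.111, 0.177 and 0.0519), HRG replicate 1 (0.0506), HRG replicate 3 (0.188), PTN replicate 2 (0.0567) or PTN replicate 3 (0.0598), after median centring (0.115), with no filter (0.0804) and with no intensity trend (0.0712). Tk1, the thymidine kinase of S phase, had 2 kept probe sets and passed on neither, with adjusted p in HRG against PTN of 0.501 and 0.0601.

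Chaf1a, the large subunit of the factor that puts histones on newly copied DNA, had the largest fall of the 32 genes in HRG against BSN. Its signals were 1625, 1284 and 940.1 in HRG, 3541, 3923 and 4053 in BSN, and 3248, 3258 and 3782 in PTN. BSN and PTN overlapped, and every HRG array was below them. Chaf1a fell 3.04-fold against BSN (-1.60 ± 0.179, adjusted p = 6.23e-05) and 2.71-fold against PTN (-1.44 ± 0.179, adjusted p = 8.81e-05), with -0.16 ± 0.179 in PTN against BSN (adjusted p = 0.541). Slbp, which was not kept, had signals of 20.5 to 37.7 on 8 arrays and 164 on HRG replicate 3, all below the 40th percentile.

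Set side by side, the calls fell into a few patterns. Mcm5, Mcm6, Rfc4 and Rpa2 passed in all 3 comparisons, lowest in HRG and highest in PTN (4 of 32 genes, and 0.96% of all probe sets). Another 12 genes, Ccne1, Chaf1a, Lig1, Mcm2, Mcm3, Mcm4, Pold1, Prim2, Rfc2, Rpa1, Rrm1 and Tyms, were lower in HRG than in both other media and did not pass in PTN against BSN (3.19% of all probe sets). Ccne2, Dut, Gins1 and Pola1 were higher in PTN than in both other media and did not pass in HRG against BSN (4.22% of all probe sets). Orc6 and Pcna passed in HRG against PTN alone, and Rfc3 in HRG against BSN alone. Fen1, Gins4, Mcm7, Pola2, Pold2, Pole, Prim1, Rpa3 and Tk1 passed nowhere, as did 61.3% of all probe sets. A gene that did not pass in PTN against BSN is not shown to be at equal levels: the SE of that difference was 0.112 to 0.281 (log2) across the 32 genes.

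Further genes of replication were taken from a separate list. Of 32 tested, 10 fell and 1 rose in HRG against BSN, and 16 fell and none rose in HRG against PTN (0 also at an unadjusted p under 0.05 in limma). In PTN against BSN 12 rose and none fell (2 were lower at an unadjusted p under 0.05 in limma). Over all probe sets 8.86% fell and 6.92% rose, 11.7% fell and 14.1% rose, and 13.4% fell and 9.15% rose in the same order. Median log2 differences of the 32 further genes were -0.33, -0.53 and 0.19. The 10 and the 16 include Rad51ap1, at 962 ± 94.5 (BSN), 545 ± 54.9 (HRG) and 990 ± 128 (PTN; SD, n = 3). Its HRG mean lay below the 40th percentiles of those arrays, so its calls add no support. Dscc1, part of an alternative clamp loader, was at 5491 ± 201 (BSN), 2524 ± 361 (HRG) and 8449 ± 1123 (PTN; SD, n = 3), a fall of 3.34-fold in HRG against PTN. Nasp, a histone chaperone, was at 10396 ± 716, 5955 ± 782 and 16709 ± 1642 in that order, a fall of 2.81-fold. Orc4, another subunit of the origin recognition complex, was the gene that rose in HRG against BSN, at 6385 ± 469 against 3557 ± 329.9 (adjusted p = 0.000692), and at 5773 ± 361 it was also higher in PTN than in BSN (adjusted p = 0.00259). Orc2, a further subunit, did not pass in HRG against BSN (adjusted p = 0.862). It fell in HRG against PTN (adjusted p = 0.00979) and rose in PTN against BSN (adjusted p = 0.0193). Orc5 passed nowhere. Orc2, Orc4, Orc5, Gins3, Rfc1 and Rad51ap1 were named after their values were seen.

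Regulators of S phase entry had calls in each direction. Of 19 tested genes of the E2F, retinoblastoma and cyclin list, 7 fell and 2 rose in HRG against BSN, 9 fell and 3 rose in HRG against PTN, and 3 fell and 5 rose in PTN against BSN, which became 1 and 10 after median centring. Over all probe sets 8.86% fell and 6.92% rose, 11.7% fell and 14.1% rose, and 13.4% fell and 9.15% rose in the same order, so the counts of rises in HRG and of falls in PTN lie near that background. Mycn, a transcription factor of the Myc family, was at 3120.2 ± 316 (BSN), 746 ± 181 (HRG) and 6902 ± 791 (PTN; SD, n = 3) and fell in HRG against either medium (adjusted p = 6.18e-06 and 1.28e-07). Ccnd1, encoding cyclin D1, was at 6383 ± 519, 2661 ± 130.3 and 7791 ± 802 in that order and also fell (adjusted p = 3.57e-05 and 4.39e-06). Myc went the opposite way, at 862 ± 332, 2292 ± 337 and 744 ± 248, and rose in HRG against BSN (adjusted p = 0.00305) and PTN (adjusted p = 0.000858). Rb1, encoding the retinoblastoma protein, was at 1672 ± 389, 6631 ± 1542 and 3333 ± 372. In HRG it rose 3.95-fold against BSN (adjusted p = 2.66e-05) and 1.96-fold against PTN (adjusted p = 0.00332). It also rose 2.01-fold in PTN against BSN (adjusted p = 0.00382), where the replication genes that passed rose too. The third gene to rise in HRG against PTN was Cdkn1a, encoding the kinase inhibitor p21, named after its values were seen, at 7184 ± 349, 4331 ± 338 and 3031 ± 267, so that it fell in HRG against BSN (adjusted p = 0.00176). The other inhibitors tested were also named after their values were seen. Cdkn1c fell in HRG 4.31-fold against BSN (adjusted p = 6.45e-05) and 6.18-fold against PTN (adjusted p = 6.8e-06). Cdkn1b fell in HRG against PTN (adjusted p = 0.028) and did not pass against BSN (adjusted p = 0.904). Cdkn2c passed in neither comparison with HRG.

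Genes of mitosis, which follows S phase, also fell in HRG. Of 34 tested, 24 fell in HRG against BSN, 31 fell in HRG against PTN and 12 rose in PTN against BSN. None went the opposite way (0 also at an unadjusted p under 0.05 in limma), and the medians were -0.74, -1.10 and 0.36. Over all probe sets 8.86% fell and 6.92% rose, 11.7% fell and 14.1% rose, and 13.4% fell and 9.15% rose in the same order. The 31 and the 12 include Cenpe, at 291.5 ± 56.9 (BSN), 121.8 ± 117 (HRG) and 964.8 ± 280 (PTN; SD, n = 3). Cenpe passed the filter through PTN alone, so its calls add no support. The 24 and the 31 include Foxm1, at 1870 ± 147, 182 ± 50.1 and 1736.5 ± 990 in that order. Its HRG mean lay below the 40th percentiles of those arrays, so its calls add no support either. After median centring 18 of the 34 fell in HRG against BSN, 32 fell in HRG against PTN and 22 rose in PTN against BSN. Of all 10106 probe sets 623 fell, 1452 fell and 1598 rose in these comparisons after that centring. Top2a, the topoisomerase of dividing cells, was at 8481 ± 769.7 (BSN), 3526 ± 648 (HRG) and 16956 ± 861 (PTN; SD, n = 3). Spc25, a kinetochore protein, was at 5135 ± 645, 2815 ± 148 and 9273 ± 609 in that order. Of 3 tested histone and chromatin genes, 2 fell in HRG against BSN, where 8.86% of all probe sets fell. All 3 fell in HRG against PTN, where 11.7% of all probe sets fell. In the latter comparison Hmgn2, a nucleosome-binding protein, fell 1.67-fold and H2az1, a histone variant, 1.48-fold. Whether the replication genes differ from the mitosis genes was not tested.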

How the data were processed

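Expression was measured on 9 arrays, 3 for each of BSN, HRG and PTN. The values deposited by the authors are linear signal intensities from GCOS, per the submitters' processing notes, whose settings the sources used here do not state. RNA went through 2 rounds of in vitro transcription, per the labels' protocols. No rescaling was applied. Of 15923 probe sets 57 were controls, and 10106 were kept, those over the 40th percentile of their array on 3 or more arrays. Probe sets were named from the platform table, and those naming several genes were not used (1 names Rrm2 beside another gene).

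Linear models were fitted to log2(signal + 16) in R 4.3.3 with limma 3.58.1, all 9 arrays in one fit with an intensity trend (6 residual degrees of freedom, 12.7 after moderation), and p-values were adjusted over every kept probe set (Benjamini-Hochberg). The number of arrays limits precision. On simulated data with changes planted in HRG, log2 changes of 1 were called in 78.3% of 69 cases (HRG against BSN) and 75.4% of 69 (HRG against PTN), with 10106 probe sets tested. The simulation changed only a small part of the probe sets and had independent normal noise without array effects. In the real data 15.8% and 25.8% of probe sets passed in these comparisons. Whether the rates hold for the real data was not tested.

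Members and lists were chosen with earlier results of these data known. Values on every array are given for the 2 members of each role with the largest moderated F, for members that passed in PTN against BSN or rose in HRG, and for members whose probe sets differ in call; from each other list, up to 2 genes with the highest and 2 with the lowest moderated t in HRG against PTN were named. Prim1, Orc2, Orc4, Orc5, Gins3, Rfc1, Rad51ap1, Cdkn1a, Cdkn1b, Cdkn1c, Cdkn2c, Cenpe, Foxm1 and the markers given with values fall outside this rule. They were named after their values were seen. Deviations from the group means of arrays with the same replicate number correlated at 0.118 to 0.332 for HRG and PTN. For the other pairs of groups they correlated at -0.097 to 0.13. Any pairing of HRG with PTN is thus read from the data, not the labels. The main fit had no term for replicate number, so its comparisons are unpaired. The replicate block was run as an alternative only, and it covered all 3 groups. Alternatives were 2 other scalings, 2 pseudocounts, 2 filters, no trend, only the groups compared, the replicate block, probe sets averaged per gene, and each array left out. Array quality was compared by exact permutation tests.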

Additional observations from a re-analysis of the deposited data

How the results depend on the processing

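No replication gene changed direction while called under any of the 19 alternatives run. Of the 17 lower calls in HRG against BSN 11 held under all of them (Mcm2, Mcm5, Mcm6, Ccne1, Prim2, Pold1, Rfc4, Rpa1, Rpa2, Lig1 and Chaf1a), of the 22 in HRG against PTN 18, and of the 8 higher calls in PTN against BSN 3 (Gins1, Rfc4 and Dut). With each array left out in turn the counts were 11 to 20 lower in HRG against BSN, 19 to 24 lower in HRG against PTN, and 3 to 10 higher and 0 to 1 lower in PTN against BSN. Median centring gave 11 lower in HRG against BSN and 14 higher in PTN against BSN; it moves the level of all genes, as given above. With the replicate block the counts were 17, 23 and 9, and the block changed the calls of Fen1 in HRG against PTN (0.0485) and Mcm4 in PTN against BSN (0.0471) and no others. A filter at the 60th percentile left out Pola2, Prim2, Pold2 and Rfc3, so it gave no value for them. With 3 arrays per group, a gene that did not pass may still differ.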
